A study of Mus musculus with 7 samples.

Results

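Gdf15 and Fgf21, the genes of a pair of circulating stress hormones, were chosen by gene symbol and are 2 of the 49382 genes in the expression table. They were read in wild-type mouse embryonic fibroblasts (MEFs), primary cells grown from minced embryos of embryonic day 13.5 to 14.4 after removal of the head and fetal liver, and used at passages 3 to 7. The libraries, 7 in number, were control cells, for which the labels give no duration, and cells under oxidative stress (10 μM sodium arsenite, 3 hours), osmotic stress (100 mM added NaCl, 3 hours), ER stress (1 μM thapsigargin, 10 hours), depletion of glucose or of glutamine from the medium (10 hours each) or hypoxia (0.1% oxygen, 10 hours). Each condition was 1 library, so the spread between cultures is unknown, no p-value is given, and no neighbouring levels in any order of libraries can be said to differ. Time and agent cannot be told apart between the 3-hour and 10-hour treatments, and all changes share the same control library.

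GDF15 is a distant member of the TGF-β superfamily that acts on the hindbrain through the receptor GFRAL and its co-receptor RET to reduce food intake. FGF21 is an endocrine fibroblast growth factor, best known from the fasting liver, that signals through FGF receptors bound to the co-receptor β-Klotho (Klb). Both genes are known targets of the integrated stress response, in which kinases of the translation factor eIF2α slow protein synthesis while favouring translation of the transcription factor ATF4. ATF4 in turn induces Ddit3, which encodes the transcription factor CHOP, and Trib3, a pseudokinase that restrains ATF4. Because ATF4 is controlled largely at translation, its mRNA is a partial measure of its activity.

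On GRCm38, Fgf21 (ENSMUSG00000030827) lies on the minus strand of chromosome 7 from 45613886 to 45615490, with 1 annotated transcript of 3 exons. Gdf15 (ENSMUSG00000038508) lies on the minus strand of chromosome 8 from 70629393 to 70632456, with 2 protein-coding transcripts. Neither overlaps another annotated gene. The 250 bases before an annotated start site are given for both genes, as a description of letters alone. For Gdf15 this is 1 of its 2 annotated windows. The sequences run 5′ to 3′ on the gene's own strand, from RefSeq on GRCm38.p6. Capitals mark a match, on the opposite strand, to TGATGNAAN, the composite element known to bind ATF4 with a C/EBP partner.
Fgf21, chr7:45615491-45615740: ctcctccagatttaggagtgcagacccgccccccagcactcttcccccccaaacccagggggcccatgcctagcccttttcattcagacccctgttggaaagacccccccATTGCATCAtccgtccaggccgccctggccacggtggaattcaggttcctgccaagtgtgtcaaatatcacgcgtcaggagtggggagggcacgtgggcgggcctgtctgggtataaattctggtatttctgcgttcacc
Gdf15, chr8:70632457-70632706: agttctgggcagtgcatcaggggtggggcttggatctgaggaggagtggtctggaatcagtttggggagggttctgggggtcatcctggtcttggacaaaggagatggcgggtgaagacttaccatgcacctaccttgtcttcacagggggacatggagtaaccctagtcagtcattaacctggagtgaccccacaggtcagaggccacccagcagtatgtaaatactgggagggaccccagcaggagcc

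The Fgf21 match lies 140 to 132 bases before the start site. TGATGNAAN was found in 3.95% of 32851 promoter windows of 300 bases (250 before to 50 after a start site), searched on both strands. In either of the 2 annotated windows of Gdf15 these letters were absent. Of the context genes, Trib3 held 1 match, from 14 to 22 bases after its start site, and Atf4 and Ddit3 held none. TGACNNNGC, the core of the element read by the oxidant-responsive factor NRF2, stood in 12.4% of windows, and the ER stress response element (CCAAT and CCACG around a 9-base spacer) in 0.119%. Neither was found in the windows of any of these 5 genes. The searches describe letters in a short window and no binding was measured.

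Gdf15 was present in every library at a moderate level. Its level was 7.03 TPM (transcript abundance as a share of the library, corrected for length and scaled to a total of 1000000) in the control. Of the 3-hour libraries, arsenite had 27.0 TPM and NaCl 9.69 TPM, and of the 10-hour libraries, thapsigargin had 17.9 TPM, glucose-free medium 4.27 TPM, glutamine-free medium 5.64 TPM and hypoxia 5.83 TPM. The oxidative and ER stress libraries were therefore high, osmotic stress lay just above the control, and the 2 nutrient depletions and hypoxia lay below it. In the control, 51.5% of the genes above 0 TPM had a lower level than Gdf15, and in oxidative stress 75.4%.

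Fgf21 was below 1 TPM in 5 of the 7 libraries. Its level was 0.528 TPM in the control, 0.654 TPM with arsenite, 0.406 TPM with NaCl, 19.6 TPM with thapsigargin, 0.205 TPM without glucose, 0.672 TPM without glutamine and 1.78 TPM in hypoxia. Only the ER stress and hypoxia libraries were above 1 TPM, and the order among the rest is one of very low values. Without the ER stress library the mean of Fgf21 was 0.708 TPM, so it passed the filter used here, a mean of 2 TPM, through that library alone. Gdf15 had a mean of 9.92 TPM without ER stress and 8.39 TPM without oxidative stress, and passed in either case.

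**Figure D1:**
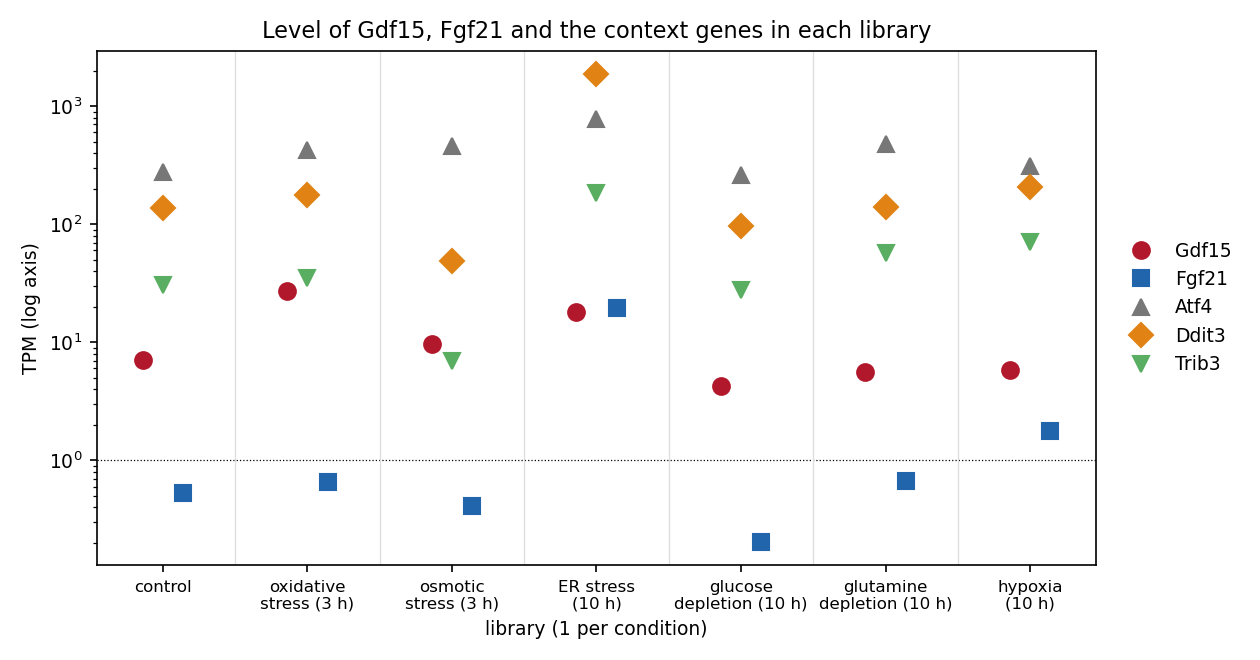
TPM (log axis) of Gdf15, Fgf21, Atf4, Ddit3 and Trib3 in the 7 libraries, 1 point per library with no error bars because there are no replicates; the dotted line is 1 TPM. Fgf21 lies below 1 TPM in 5 libraries and at 19.6 TPM in ER stress, beside Gdf15 at 17.9 TPM.

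The balance between the hormones differed between conditions. The ratio of Gdf15 to Fgf21 TPM was 13.3 in the control, 41.3 with arsenite, 23.8 with NaCl, 20.8 without glucose, 8.39 without glutamine and 3.27 in hypoxia. In ER stress the ratio of Gdf15 to Fgf21 TPM was 0.913. TPM is corrected for transcript length, so these levels can be set side by side between genes. The ratios outside ER stress rest on low Fgf21 values.

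Against the control, Gdf15 rose past 2-fold in oxidative stress (log2 change 1.80; all log2 changes are differences of log2(TPM + 1), a scale that understates changes of low genes) and in ER stress (1.23), and Fgf21 rose in ER stress (3.75). As ratios of TPM these were 3.85, 2.55 and 37.1. On the log2(TPM + 1) scale no fall of either hormone passed 2-fold. For Gdf15 the remaining log2 changes were 0.41 with NaCl, -0.61 without glucose, -0.27 without glutamine and -0.23 in hypoxia. For Fgf21 they were 0.11 with arsenite, -0.12 with NaCl, -0.34 without glucose, 0.13 without glutamine and 0.86 in hypoxia. As ratios of TPM, Fgf21 without glucose was 0.388 of the control and in hypoxia 3.37, both between values under 2 TPM. In bulk RNA, a larger share of expressing cells and more RNA per cell cannot be told apart.

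Of the 2 hormones, 2 were up in ER stress, where 8.60% of the 12909 genes averaging 2 TPM or more (the kept genes) passed 2-fold upward and 11.0% downward. Fgf21 was among the kept genes only because of its ER stress level, so its count there was partly fixed by the filter and is no support. Oxidative stress had 1 of 2 up, beside 3.94% of kept genes up and 4.85% down. Neither passed 2-fold in osmotic stress (3.08% up, 8.76% down), glucose depletion (1.83% up, 2.41% down), glutamine depletion (3.21% up, 3.21% down) or hypoxia (3.57% up, 2.64% down). Over kept genes the median change lay between -0.16 (oxidative stress) and 0.00 (ER stress).

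Ranked on the log2(TPM + 1) scale among the 11300 kept protein-coding genes, Fgf21 in ER stress was number 14 from the top. Ddit3 was next to it at number 13. Fgf21 was kept only because of its ER stress level, so this place was partly fixed by the filter and is no support. The change of Gdf15 was number 51 from the top in oxidative stress and number 455 in ER stress. In hypoxia Fgf21 was number 300 from the top, while in glucose depletion Gdf15 was number 379 from the bottom. Over all 12909 kept genes, coding or not, 264 rose more than Gdf15 in oxidative stress and 724 in ER stress. For Fgf21 these numbers were 105 in ER stress and 564 in hypoxia. Of 9052 protein-coding genes at or below the control level of Fgf21, Fgf21 and Prr32 reached 19.6 TPM or more in ER stress. Both bounds are levels of Fgf21 itself, so its place there was fixed in advance and is no support. In osmotic stress 2 such genes reached that level (Gm17545 and Rpl9-ps6). Oxidative stress (Gm21961), glutamine depletion (Rpl9-ps6) and hypoxia (Mgarp) had 1 each, and glucose depletion had 0.

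**Figure D2:**
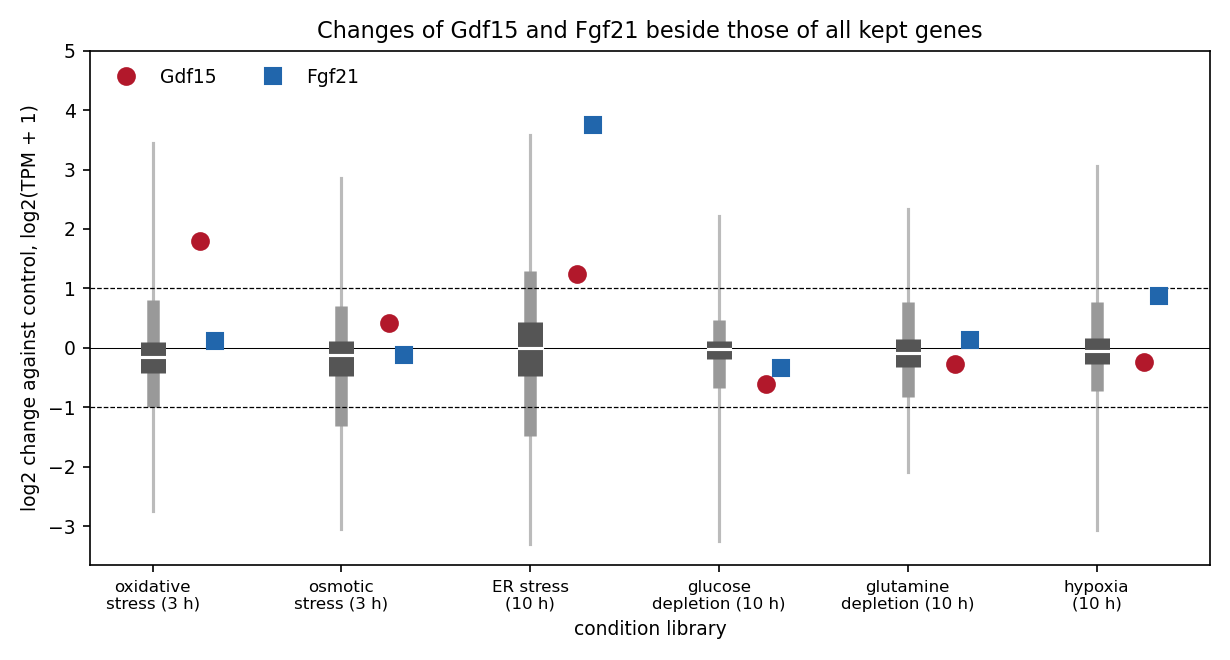
Log2 change against control of Gdf15 (circles) and Fgf21 (squares) in each condition library, beside the central 50%, 90% and 98% (dark, mid and light bars, median in white) of 12909 kept genes; dashed lines mark 2-fold. Fgf21 in ER stress, at 3.75, is above the 98% bar, and Gdf15 in oxidative stress, at 1.80, is above the 90% bar.

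Compared directly at 3 hours, Gdf15 was higher in the arsenite library than in the NaCl library by 1.39 log2 units, a difference greater than that of 95.6% of kept genes. Fgf21 differed by 0.23 between these libraries at levels under 1 TPM. Among the 10-hour libraries, Gdf15 in ER stress exceeded glucose depletion by 1.84, glutamine depletion by 1.51 and hypoxia by 1.47 log2 units. Fgf21 in ER stress exceeded the same libraries by 4.10, 3.62 and 2.89. Glutamine depletion and hypoxia differed by 0.04 for Gdf15, with hypoxia the higher, and by 0.73 for Fgf21, again with hypoxia the higher.

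The context genes were far more abundant than the hormones. Atf4 had 276 TPM in the control, 424 TPM with arsenite, 458 TPM with NaCl, 773 TPM with thapsigargin, 260 TPM without glucose, 478 TPM without glutamine and 309 TPM in hypoxia. It was highest in ER stress, with a log2 change of 1.48, and the other changes of its mRNA stayed within 2-fold, from -0.09 to 0.79. Ddit3 had 136 TPM in the control, 177 TPM with arsenite, 48.9 TPM with NaCl, 1870 TPM with thapsigargin, 95.9 TPM without glucose, 141 TPM without glutamine and 208 TPM in hypoxia. In GENCODE M21 Ddit3 overlaps Gm4189 and Mars on the opposite strand, and since Kallisto at default settings does not use strand, their reads may be mixed. Trib3 had 30.8 TPM in the control, 34.9 TPM with arsenite, 6.96 TPM with NaCl, 184 TPM with thapsigargin, 27.7 TPM without glucose, 57.0 TPM without glutamine and 71.1 TPM in hypoxia. Ddit3 and Trib3 shared their extremes, lowest with NaCl and highest with thapsigargin.

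In ER stress all 3 context genes rose with both hormones. Ddit3 changed by 3.77 and Trib3 by 2.54, and the change of Gdf15 was below all 3. The change of Fgf21 was close to that of Ddit3 on the log2(TPM + 1) scale only. As ratios of TPM to the control they differed, at 37.1 for Fgf21 and 13.7 for Ddit3. In oxidative stress Gdf15 rose by 1.80 while Atf4, Ddit3 and Trib3 stood at 0.62, 0.37 and 0.17. In osmotic stress Ddit3 fell by 1.46 and Trib3 fell by 2.00, whereas Atf4 stood at 0.73 and Gdf15 at 0.41. In hypoxia Trib3 rose by 1.18, with Ddit3 at 0.61 and Fgf21 at 0.86. In glucose depletion all 5 genes lay below 0 and none passed 2-fold, and in glutamine depletion Atf4 stood at 0.79, Trib3 at 0.87, Ddit3 at 0.05, Fgf21 at 0.13 and Gdf15 at -0.27. The ratio of Ddit3 to Atf4 TPM was 0.493 in the control, 0.107 in osmotic stress and 2.42 in ER stress.

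The kinases that feed this pathway are Eif2ak1 (HRI, activated by heme shortage and oxidants), Eif2ak2 (PKR, double-stranded RNA), Eif2ak3 (PERK, the ER) and Eif2ak4 (GCN2, amino acid shortage). In ER stress Eif2ak3 rose from 23.0 to 47.9 TPM (1.03) and Eif2ak2 fell from 23.0 to 10.7 TPM (-1.04), while Eif2ak1 and Eif2ak4 stood at 0.29 and -0.33. In the other conditions the 4 kinase mRNAs stayed within 2-fold, from -0.68 for Eif2ak3 in glutamine depletion to 0.80 for Eif2ak3 in osmotic stress. Ppp1r15a (GADD34), a phosphatase subunit that reverses eIF2α phosphorylation, rose in ER stress by 3.70 and in osmotic stress by 1.96. Its constitutive relative Ppp1r15b stayed within 2-fold throughout, from -0.01 to 0.62.

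Of 6 factors related to ATF4 or partnering with it, Atf3, a stress-induced relative, moved most. Atf3 rose from 3.02 TPM in the control to 88.3 TPM with arsenite (4.47), 13.2 TPM with NaCl (1.82), 112 TPM with thapsigargin (4.81) and 21.3 TPM without glutamine (2.47), and had 3.14 TPM without glucose and 5.95 TPM in hypoxia. It was thus high in both libraries where Gdf15 rose, and also in 2 where Gdf15 did not pass 2-fold. Nupr1, a small stress-induced chromatin protein, rose in osmotic stress (1.42), ER stress (1.23) and glutamine depletion (1.37). Atf5, Cebpb, Cebpg and Jdp2 stayed within 2-fold in all 6 conditions.

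**Figure D3:**
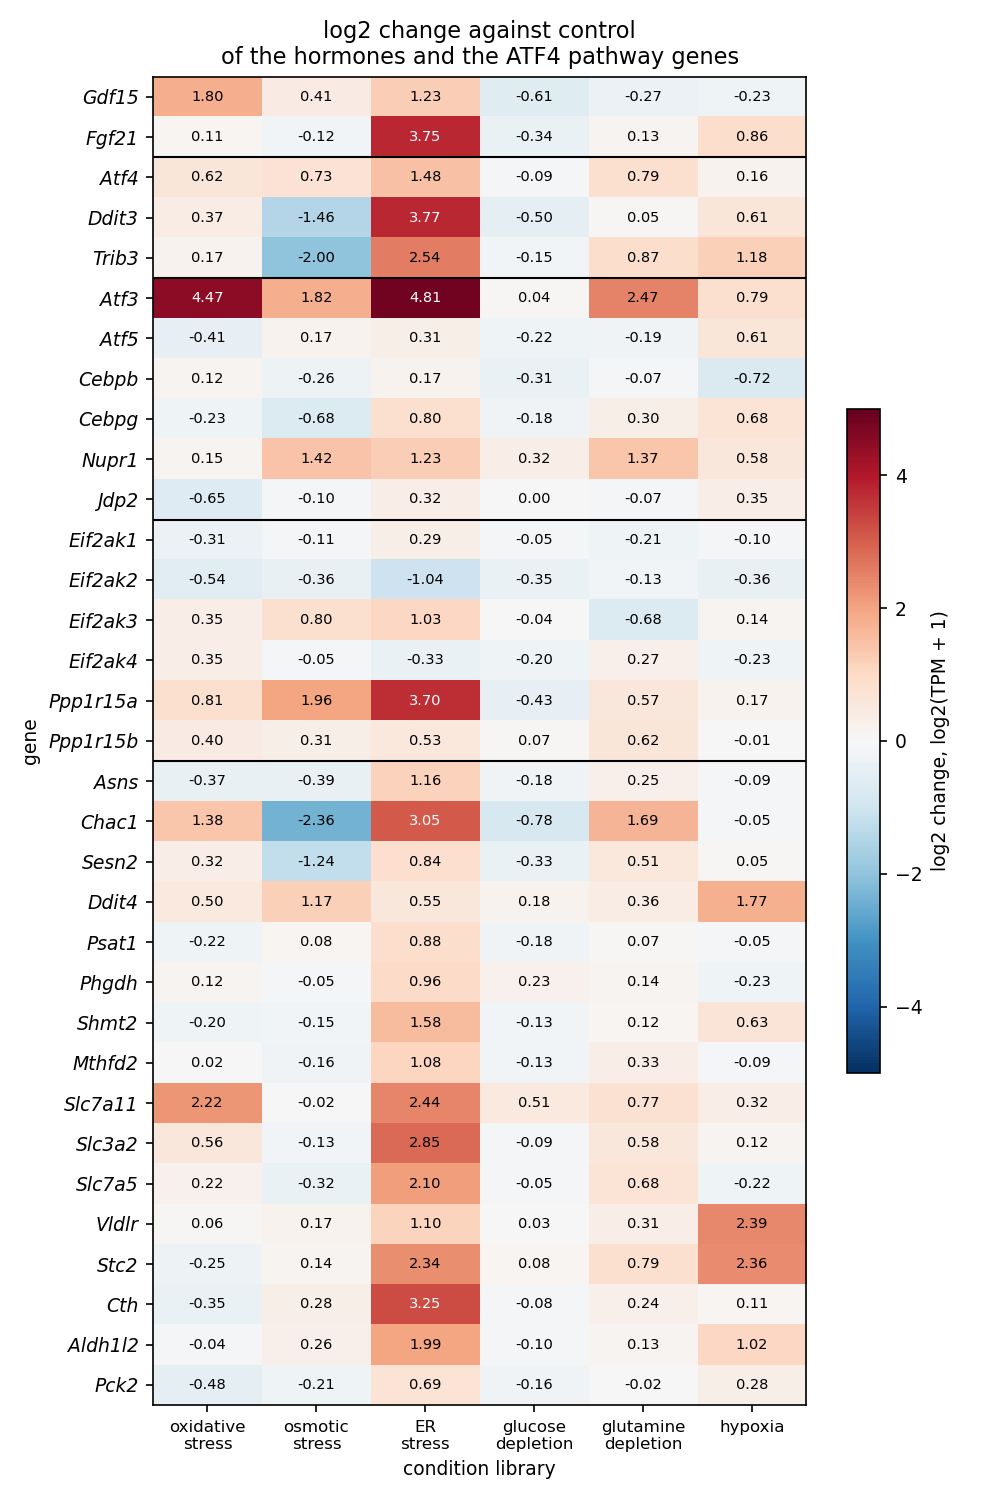
Heat map of log2 changes against control, log2(TPM + 1), for the 2 hormones, the 3 context genes, 6 ATF4 family and partner factors, 6 eIF2α kinases and phosphatase subunits and 16 ATF4 targets (from top to bottom, separated by lines); red is higher and blue lower than the control. In ER stress all 16 targets are above 0, and in oxidative stress Gdf15, at 1.80, is exceeded by Slc7a11 among them.

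Among 16 ATF4 target genes for amino acid supply and stress feedback, 11 rose and 0 fell in ER stress, with a median of 1.37 beside 0.00 over all kept genes. Cth, an enzyme of cysteine synthesis, rose by 3.25, the glutathione-degrading enzyme Chac1 by 3.05, the amino acid transporter chain Slc3a2 by 2.85 and the cystine transporter Slc7a11 by 2.44. On the log2(TPM + 1) scale the change of Gdf15, 1.23, lay just under the list's median, and that of Fgf21, 3.75, lay above all 16 genes. Fgf21 started at 0.528 TPM, and its change was 2.15 with a pseudocount of 5 TPM. Its place among these targets therefore depends on the pseudocount.

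In oxidative stress 2 of the 16 targets rose, Slc7a11 (2.22) and Chac1 (1.38), beside 3.94% of all kept genes. The list's median was 0.04, beside -0.16 over all kept genes. Gdf15 lay above 15 of the 16 targets. In osmotic stress Ddit4, which restrains mTORC1, rose (1.17), while Chac1 fell by 2.36 and the stress sensor Sesn2 fell by 1.24. In glutamine depletion Chac1 alone rose (1.69), although 15 of 16 targets lay above 0 with a median of 0.32, and Gdf15 and Fgf21 stood at -0.27 and 0.13. In glucose depletion no target passed 2-fold, and the lowest was Chac1 at -0.78. In hypoxia Vldlr (2.39), Stc2 (2.36), Ddit4 (1.77) and Aldh1l2 (1.02) rose, of which Vldlr, Stc2 and Ddit4 are also known targets of the hypoxia factor HIF, and the median was 0.11.

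The other arms of the unfolded protein response, run by ATF6 and by XBP1, were read together from 10 genes of ER folding and quality control. All 10 rose in ER stress, with a median of 3.24, led by Sdf2l1 (4.22), Herpud1 (4.04), Dnajb9 (3.98) and Creld2 (3.71). On the log2(TPM + 1) scale the change of Fgf21 lay between those of Dnajb9 and Creld2, and that of Gdf15 was above Xbp1 alone (1.17). In glucose depletion 9 of the 10 lay above 0 with a median of 0.47, none past 2-fold, in the library where both hormones had their lowest TPM.

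NRF2 is activated by oxidants and electrophiles, and 6 of its 7 listed targets rose in oxidative stress, with a median of 1.63. Hmox1, which breaks down heme, rose by 4.50, the sulfiredoxin Srxn1 by 2.41, Osgin1 by 1.94 and the thioredoxin reductase Txnrd1 by 1.63. Gdf15, at 1.80, lay between Osgin1 and Txnrd1. In ER stress Hmox1 (2.75) and Txnrd1 (1.59) rose and the list's median was 0.82, and in glutamine depletion Txnrd1 (1.19) and Srxn1 (1.13) rose. The NRF2 gene itself, Nfe2l2, stayed between 0.01 and 0.52.

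Gdf15 is also a known target of p53, and 10 genes of that response were read. In oxidative stress 1 of them, Btg2, rose (1.05; 0 passed with a pseudocount of 5 TPM) and the list's median was -0.21. In ER stress none passed 2-fold, the median was -0.04, and Mdm2 at 0.78 and Phlda3 at -0.76 were the most distant. In osmotic stress Bbc3 and Btg2 fell by 1.62 and 1.26. The p53 gene, Trp53, was between -0.33 and 0.88, highest in ER stress at 177 TPM against 95.7 TPM in the control.

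**Figure D4:**
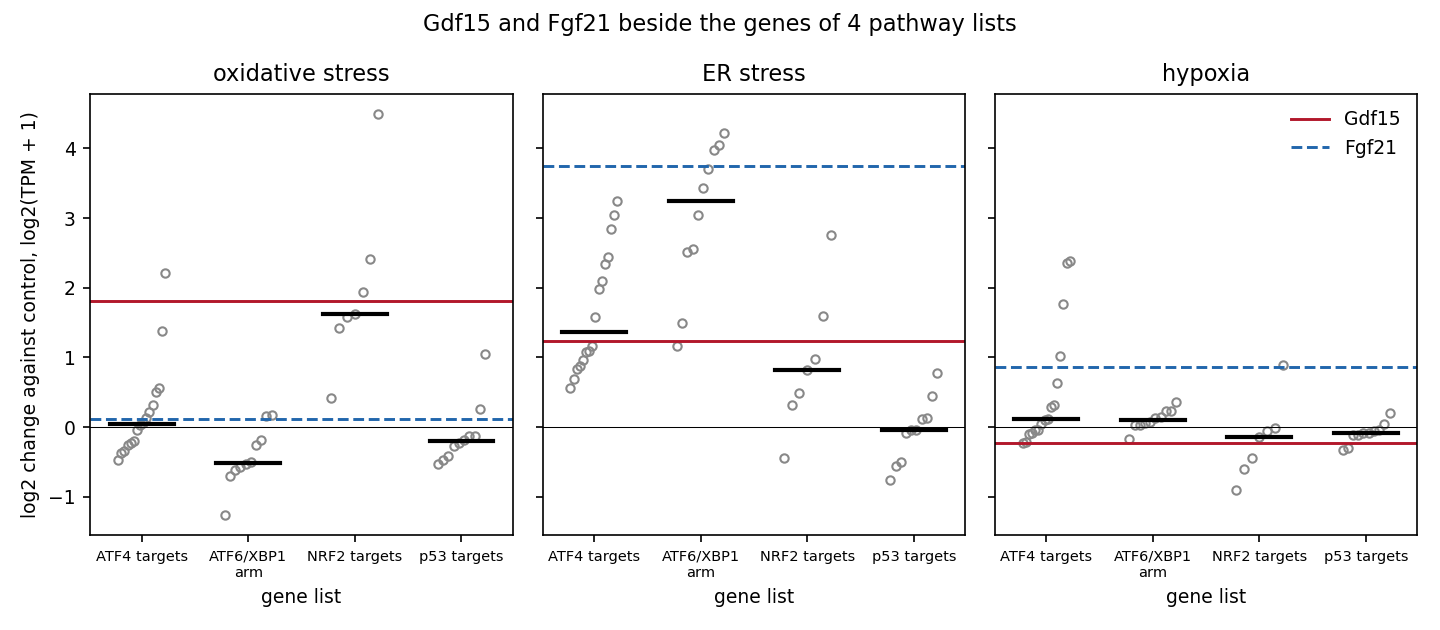
Log2 change against control, log2(TPM + 1), of the genes of 4 pathway lists (open circles, sorted within each list; black bars are list medians) in 3 condition libraries, with Gdf15 as a solid and Fgf21 as a dashed line. Gdf15 lies near the NRF2 targets in oxidative stress and near the median of the ATF4 targets in ER stress. On this scale Fgf21 lies above all ATF4 targets in ER stress, a place that depends on the pseudocount.

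Other transcription factors tied to either gene were read in full. Egr1, an immediate early factor linked to Gdf15, rose in oxidative stress (1.17) and in glutamine depletion (1.58), the latter without a rise of Gdf15. Ppara, the fasting factor that drives Fgf21 in liver, had 1.60 TPM in the control and at 0.00 to 0.50 TPM in the 6 conditions, and did not pass the filter. Pparg, the adipocyte factor, fell by 1.96 in ER stress and by 1.12 in glutamine depletion, and Ppard stayed within 2-fold. Mlxip (MondoA) stayed between -0.09 and 0.52, and its relative Mlxipl (ChREBP), a carbohydrate sensor linked to Fgf21, was below 0.5 TPM throughout.

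The mRNAs of the GDF15 receptor and of the FGF21 co-receptor Klb were absent or scarce, and that of Ret was low but passed the filter. Gfral was listed at 0 in all 7 libraries. Its co-receptor Ret had 1.65 TPM in the control and 4.67 TPM in glutamine depletion, the only condition in which it passed 2-fold on the log2(TPM + 1) scale (1.10). With arsenite Ret had 3.48 TPM, a TPM ratio of 2.11 and a log2 change of 0.76. Klb was at or below 0.05 TPM, and listed at 0 in 5 libraries. The highest level was 0.116 TPM for Fgfr4 and 0.122 TPM for Kl, which encodes the co-receptor for FGF23.

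The FGF receptors shared with other ligands were expressed. Fgfr1 had 102 TPM in the control, 59.7 TPM in ER stress (-0.76) and between 103 and 140 TPM elsewhere. Fgfr2 fell in ER stress from 121 to 45.7 TPM (-1.38), and Fgfr3 fell from 3.41 to 0.97 TPM (-1.17). So in the library where Fgf21 was highest, these 3 receptors were at their lowest.

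Secreted GDF15 is cut from its precursor by furin-like convertases, and human FGF21 is inactivated by the protease FAP. Whether FAP acts on mouse FGF21 was not tested. Furin fell in ER stress from 112 to 51.3 TPM (-1.11) and was between 85.7 and 153 TPM elsewhere. Pcsk5, Pcsk6 and Pcsk7, related convertases, stayed within 2-fold. Fap was lowest in ER stress, with 3.29 TPM against 6.41 TPM in the control (-0.79), and highest in oxidative stress, with 9.37 TPM.

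Within each hormone's family the changes in ER stress went in both directions. Of 22 FGF genes 7 passed the filter, Fgf21 only through its ER stress level. In ER stress Fgf21 rose while Fgf18 (-1.69), Fgf7 (-1.18) and, just past 2-fold, Fgf5 (-1.002, from 3.52 to 1.26 TPM) fell. Fgf2, Fgf10 and Fgf13 stayed within 2-fold. Of all kept genes 8.60% rose and 11.0% fell. Fgf16, which did not pass the filter, also rose past 2-fold, from 0.85 to 3.44 TPM (1.26). Of the other endocrine FGFs, Fgf15 was listed at 0 in all libraries and Fgf23 in 6 of 7. Of 11 GDF genes, counting myostatin (Mstn), 3 passed the filter. Gdf10 fell in ER stress by 2.17 and Gdf11 by 1.64, where Gdf15 rose by 1.23.

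The genes whose 6 changes lay nearest to those of each hormone were taken from all kept genes, by the root mean square difference in log2 units. For Gdf15 these were Zfand2a, an arsenite-induced zinc finger gene (0.25), Gclc (0.39) and Gclm (0.39), the subunits of the first enzyme of glutathione synthesis and members of the NRF2 list, Gm18801 (0.40) and Prnd (0.44). Zfand2a had 24.3 TPM in the control, 118 TPM with arsenite and 66.5 TPM with thapsigargin. For Fgf21 they were Piga (0.34), an enzyme of membrane anchor synthesis, the carbonic anhydrase Car6 (0.35), the adhesion protein Cxadr (0.37), Herpud1 (0.38), which serves ER-associated degradation, and Mir1901 (0.39). Mir1901 was listed at 0 in the 6 libraries other than ER stress. Ranked by Pearson r over the 7 libraries instead, a description with no test, 1 of the 5 was kept for Gdf15 (Zfand2a) and 1 for Fgf21 (Car6).

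The labelled treatments were checked with a few known target genes, none of them for glutamine depletion. All 7 listed HIF targets rose in hypoxia (median 3.74), 2 of 4 NFAT5 targets rose in osmotic stress, and both MondoA targets, Txnip and Arrdc4, fell in glucose depletion, although in osmotic stress Txnip also fell by 3.12. The 7 fibroblast markers passed the filter, and their summed level ran from 6121 TPM in ER stress to 12711 TPM in hypoxia. Of 5 hepatocyte markers, Alb, Ttr and Serpina1a were listed at 0 in all libraries, and the 5 summed to 0 TPM in ER stress, where Fgf21 was 19.6 TPM. Adipoq and Lep were listed at 0 in ER stress, Fabp4 was at its lowest there (21.3 TPM), and the 5 adipocyte markers summed to 21.3 to 55.1 TPM. The muscle markers Myog, Myod1, Ckm and Myh3 were below 1 TPM throughout, and the list's sum, 37.5 TPM in ER stress to 152 TPM in glucose depletion, was nearly all Acta1. Macrophage markers summed to 6.13 TPM in ER stress, their lowest, and to 14.6 TPM in osmotic stress, their highest, and endothelial markers to 2.94 to 7.31 TPM. The 4 epithelial markers summed to 11.6 TPM in ER stress, mostly Krt18, against 5.90 TPM in the control, with Epcam at 0, and their part in the results was not tested. Mitochondrially encoded genes took 9.25% of the TPM in oxidative stress and 5.09 to 7.58% elsewhere.

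The size of the Fgf21 change, and with it the place of Fgf21 among other genes, depended on the pseudocount. In ER stress the change was 4.97 with 0.1 TPM and 2.15 with 5 TPM, past 2-fold in either case. With 0.1 TPM, and not with 1 TPM, Fgf21 also passed 2-fold upward in hypoxia (1.58) and downward in glucose depletion (-1.04). Gdf15 in ER stress was at 0.93 with 5 TPM, below 2-fold, and in oxidative stress was past 2-fold under all alternatives tried, from 1.41 to 1.96.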

How the data were processed

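RNA-seq of mouse embryonic fibroblasts comprised 7 libraries, 1 per condition. Per the labels, libraries were made with a stranded mRNA kit and sequenced from both ends. The authors quantified reads with Kallisto (version 0.43.1 in the submitters' processing notes) at default settings against cDNA sequences of GRCm38, Ensembl release 90. The authors deposited gene-level TPM, the total of a gene's transcripts. TPM keeps no read count, so depth, counting error and detection limits are unknown.

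From the deposited TPM, log2(TPM + 1) minus the control value was taken as the log2 change. Following the study's methods, a change past 2-fold was counted. Genes averaging 2 TPM or more, 12909 of 49382, were kept as background, and all 7 value columns were used. No test was run, since no condition had a replicate. The genes most like each hormone were those with the smallest root mean square difference over the 6 log2 changes. Named genes were Gdf15, Fgf21, Atf4, Ddit3 and Trib3; the receptors, processing enzymes, eIF2α kinases and linked transcription factors in full; at most 4 genes per other list and condition by size of change; and the 5 most like each hormone. The hormones, the 24 gene lists and the rules were chosen with earlier results of these data known. Locations came from GENCODE M21 and promoter windows from RefSeq, both on GRCm38. The alternatives were other pseudocounts, filters, thresholds and references, centring, and removal of mitochondrially encoded genes. The counting steps were tested on simulated data. The tools were pandas 2.3.3 and numpy 2.4.6 under Python 3.11.15, with figures from matplotlib 3.10.9.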

Additional observations from a re-analysis of the deposited data

How the results depend on the processing

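Results without a test were compared by side of the fold threshold and by sign. Of 84 recomputed hormone changes, 76 kept both. Some of these could not differ: for Gdf15 the control was itself the median of the 7 libraries, and a new threshold cannot change a sign. Gdf15 in ER stress no longer passed with a pseudocount of 5 TPM (0.93) or at 3-fold (1.23). Gdf15 in glucose depletion passed at 1.5-fold (-0.61), as did Fgf21 in hypoxia (0.86). With 0.1 TPM, Fgf21 passed in glucose depletion (-1.04) and in hypoxia (1.58). Fgf21 in oxidative stress was 0 against the median of the 7 libraries, and in osmotic stress 0.00064 after centring. Both lie near 0, and the cause was not tested.

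The share of all genes past 2-fold moved by over 1.5 times in 22 of 60 cases. With 5 TPM, the shares up and down were 2.62% and 1.87% with arsenite, 1.90% and 3.27% with NaCl, 1.08% and 1.53% in glucose depletion, 1.93% and 1.42% in glutamine depletion, and 2.33% and 1.55% in hypoxia, and 6.03% down in ER stress. With a mean of at least 10 TPM they were 1.79% and 4.92% in osmotic stress, 0.748% and 1.04% in glucose depletion, 2.00% and 1.49% in hypoxia, and down 2.83% with arsenite and 1.61% without glutamine. With no filter the shares down were 5.38% in osmotic stress and 6.53% in ER stress, and after centring 3.20% in oxidative stress. The hormones' own values do not depend on the filter.

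Of the 5 genes most like each hormone, Pearson r kept 1 for Gdf15 and 1 for Fgf21. Leaving out ER stress kept 1 for Gdf15 and 0 for Fgf21, and 5 TPM kept 0 for Fgf21. Counts in the ATF4, ATF6 and XBP1, NRF2 and p53 lists, recomputed with alternatives chosen after seeing the data, stayed within 1.5 times in 141 of 144 cases, the exceptions being p53 targets up in oxidative stress (0 with 5 TPM) and in osmotic stress and glutamine depletion (1 each after centring). No paired analysis was possible because each condition was 1 library, and for the same reason no replicate could be left out. TPM keeps no read count, so low values such as those of Fgf21 carry no known precision.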

Other observations

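The nearest protein-coding neighbours were read after the values were seen. Fut1, a fucosyltransferase gene 1799 bases from Fgf21, was at 1.24 TPM in ER stress and listed at 0 in the other 6 libraries. Bcat2, a branched-chain amino acid enzyme 24175 bases from Fgf21, rose in ER stress from 30.3 to 75.5 TPM (1.29). Izumo1 and Rasip1, at 6321 and 11998 bases, lie nearer to Fgf21 than Bcat2. With thapsigargin Izumo1 was listed at 0, and Rasip1 moved from 0.280 to 0.631 TPM (0.35). Mamstr, at 24487 bases, moved from 0.360 to 1.32 TPM (0.77), and Fut2, at 33101 bases, was listed at 0. The region around Fgf21 therefore did not rise as a whole. Lrrc25, the protein-coding gene nearest to Gdf15 at 7910 bases, was listed at 0 in 6 libraries and stood at 0.137 TPM in hypoxia. Isyna1, an inositol synthesis enzyme 32103 bases from Gdf15, rose in ER stress from 17.5 to 55.4 TPM (1.61) and stood at -0.40 in oxidative stress, where Gdf15 rose. Closer to Gdf15, Ssbp4 at 20521 bases fell in ER stress from 67.3 to 28.9 TPM (-1.19), and Pgpep1 at 13979 bases stood at -0.71 there.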
